A study of Homo sapiens with 12 samples.

Results

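Aminoacyl-tRNA synthetases attach each amino acid to its transfer RNA (tRNA), the step that fixes which amino acid a codon receives. The genes described here were chosen by name and are the 35 members of a set of 19 cytosolic and 16 mitochondrial synthetase genes. Each of the 35 matched 1 row in the table of the kava experiment, which lists 78932 genes, and 1 row in the table of the siRNA experiment, which lists 35697. All 35 reached the minimum mean level set for testing, 1 TPM (transcripts per 1000000, a level scaled for transcript length) in the first table and 1 CPM (counted reads per 1000000) in the second.

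Human cells make one set of synthetases for the cytosol and another for mitochondria, and nuclear genes encode both. GARS1 and KARS1 are exceptions, each giving a cytosolic and a mitochondrial form from the same gene. Of the cytosolic enzymes studied, EPRS1, IARS1, KARS1, LARS1, MARS1, QARS1 and RARS1 are held with scaffold proteins in the multi-synthetase complex, and the others act outside it. When tRNA stays uncharged, the kinase GCN2 (gene EIF2AK4) phosphorylates the initiation factor eIF2alpha, translation of the transcription factor ATF4 rises, and ATF4 is known to act on many genes of amino acid uptake and synthesis and on cytosolic synthetase genes.

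The cells were BEAS-2B, an immortalised line of human bronchial epithelium, and every library came from cells that had been kept for 20 weeks with 0.25 µM K2Cr2O7, a source of the lung carcinogen hexavalent chromium. In the kava experiment 3 libraries came from cells given 25 µg/ml kava (a preparation of Piper methysticum) over the same weeks, and 3 from cells given the vehicle instead, 0.05% DMSO. The knockdown experiment started from chromium and vehicle cells and gave them SNRPA1 siRNA, a pool of oligonucleotides, or a control siRNA without a target, each at 100 nM for 48 h and with 3 libraries. Nothing in the labels ties replicates to separate cultures, and p-values therefore measure the spread between these libraries. No library from cells without chromium was part of the comparisons.

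SNRPA1, which encodes a U2 snRNP protein of the spliceosome, stood at 67.5, 58.8 and 60.1 CPM in the control siRNA libraries and at 21.3, 20.9 and 23.7 CPM in the SNRPA1 siRNA libraries, so the targeted mRNA was low where the labels say it should be. Totals of 55003534 to 65385258 reads were counted per siRNA library, and the depth behind the TPM values is unknown. Among the siRNA libraries, control siRNA replicate 1 stood farthest from its group, with an SD of 0.428 on the log2 scale from its mates against 0.222 to 0.319 for the other 5. Its deviation rose with the GC content of the transcript (Spearman rho 0.587 across genes), and synthetase values are therefore also given without it. Other libraries deviated with GC content too. The rho was -0.559 and -0.436 for control siRNA replicates 2 and 3, and -0.488, 0.0875 and 0.439 for SNRPA1 siRNA replicates 1 to 3. In the kava experiment it lay between -0.341 (kava replicate 3) and 0.285 (kava replicate 1). Leaving out control siRNA replicate 1 therefore does not remove every such deviation. Of 8 markers of the bronchial epithelial line, 6 averaged at least 1 TPM in vehicle and kava cells, while KRT5 and CDH1 were under 1. With kava 3 of these 6 rose (KRT7 by 1.08, ITGA6 by 1.03 and LAMB3 by 0.37 on the log2 scale) and 2 fell, KRT8 (-0.21) and KRT18 (-0.11), and in the knockdown none of the 5 tested was called. Of 6 blood cell markers only CD68 reached 1 TPM, at 13.4 ± 0.793 in vehicle and 25.5 ± 1.05 in kava cells, and HBB was at 0. In the knockdown CD68 fell from 22.3 ± 2.30 to 12.1 ± 1.45 CPM. The fibroblast gene COL1A2 stood at 0.101 ± 0.0554 TPM in vehicle and 8.54 ± 0.378 TPM in kava cells, with COL3A1, DCN and LUM under 1 TPM in both. COL1A1, another fibroblast gene, was lower with kava (95.4 ± 4.84 and 86.4 ± 0.490 TPM, limma adjusted p = 0.0469) and higher in the knockdown (258 ± 14.2 and 336 ± 36.9 CPM, edgeR adjusted p = 0.0464), and its kava call was lost without any 1 library other than vehicle replicate 3 (limma adjusted p up to 0.138). The part of these marker changes in the synthetase values was not tested.

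In vehicle cells the cytosolic synthetase mRNAs were the more abundant set. On the TPM scale the 19 cytosolic genes had a median of 142 TPM and the 16 mitochondrial genes a median of 26.3 TPM (means of 3 libraries). KARS1, the lysine enzyme that serves both compartments, had the highest level of the 35 at 199 ± 4.80 TPM (SD, n = 3), and its 3 libraries held 195, 204 and 198 TPM. PARS2, the mitochondrial proline enzyme, had the lowest at 4.68 ± 0.403 TPM, with libraries at 4.98, 4.82 and 4.22 TPM. The lowest cytosolic gene was FARSB at 28.5 ± 0.387 TPM and the highest mitochondrial gene was IARS2 at 84.0 ± 0.939 TPM, so the sets overlapped.

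For 15 amino acids the set holds 1 cytosolic and 1 mitochondrial gene that can be paired (phenylalanine, with a cytosolic enzyme of 2 subunits, was left out), and the cytosolic gene had the higher vehicle TPM in 14 of them. The ratio of cytosolic to mitochondrial TPM had a median of 5.32 and reached 22.7 for proline, where the cytosolic activity is part of the bifunctional enzyme EPRS1, and 22.3 for methionine. Cysteine was the exception, with CARS1 at 52.8 ± 0.351 TPM and CARS2, its mitochondrial counterpart, at 80.3 ± 0.307 TPM, a ratio of 0.657. In the control siRNA libraries, where levels per length are given as FPKM (fragments scaled for transcript length and library size), the order was similar but not the same (Spearman rho 0.78 over the 35 genes, a description of 2 tables that were made by different processing). There the cysteine ratio was 1.04 and the isoleucine ratio 0.397, against 1.77 in TPM. The siRNA treatment and the libraries differed as well as the processing, and their parts in these differences cannot be told apart.

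**Figure D1:**
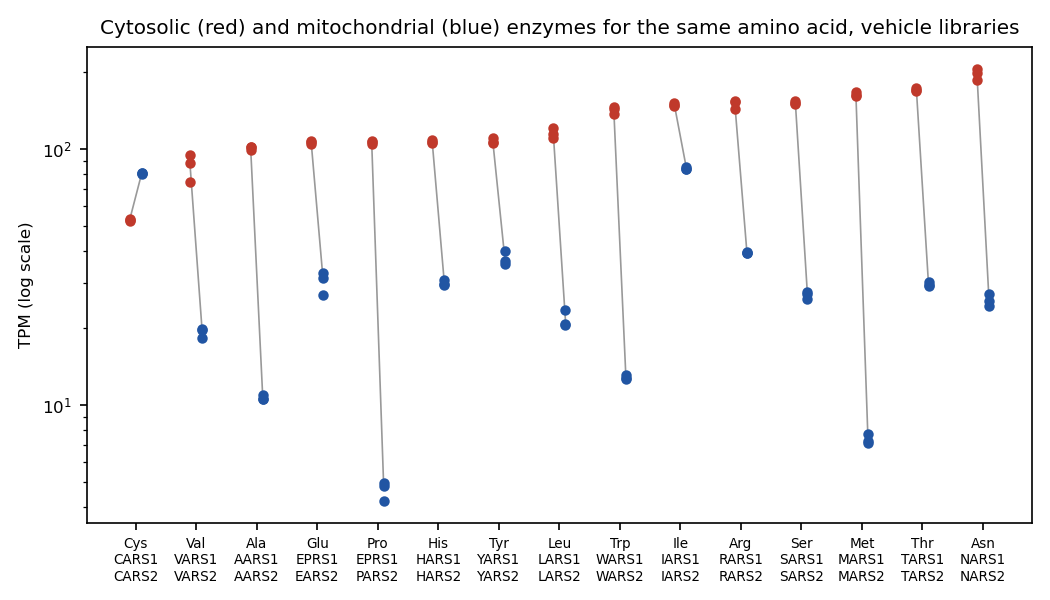
Levels of the cytosolic (red) and mitochondrial (blue) synthetase genes for each of 15 amino acids in the 3 vehicle libraries, in TPM on a log scale. Each point is 1 library and the grey line joins the means. The cytosolic gene lies above its mitochondrial counterpart for 14 amino acids and below it for cysteine.

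With kava, 14 of the 35 synthetase mRNAs changed, 6 of them upward and 8 downward, all by modest amounts. CARS1, GARS1, HARS1 and YARS1, which charge cysteine, glycine, histidine and tyrosine tRNAs in the cytosol, rose by 1.18-fold to 1.21-fold, and SARS1 (serine) and the mitochondrial CARS2 rose less. The falls comprised the cytosolic WARS1 and FARSB, the complex members KARS1 and IARS1, and the mitochondrial NARS2, LARS2, SARS2 and RARS2. The 40% of synthetases called compares with 31.9% of all 13866 genes tested, and by direction the backgrounds were 16.3% higher and 15.6% lower (limma on log2(TPM + 1), Benjamini-Hochberg adjusted p under 0.05). Groups did not overlap for 20 of the 35, against 47.2% of all tested genes. Both shares were somewhat above the background, and that difference was not tested. In these bulk samples less mRNA in each cell and fewer cells that carry it cannot be told apart.

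**Figure D2:**
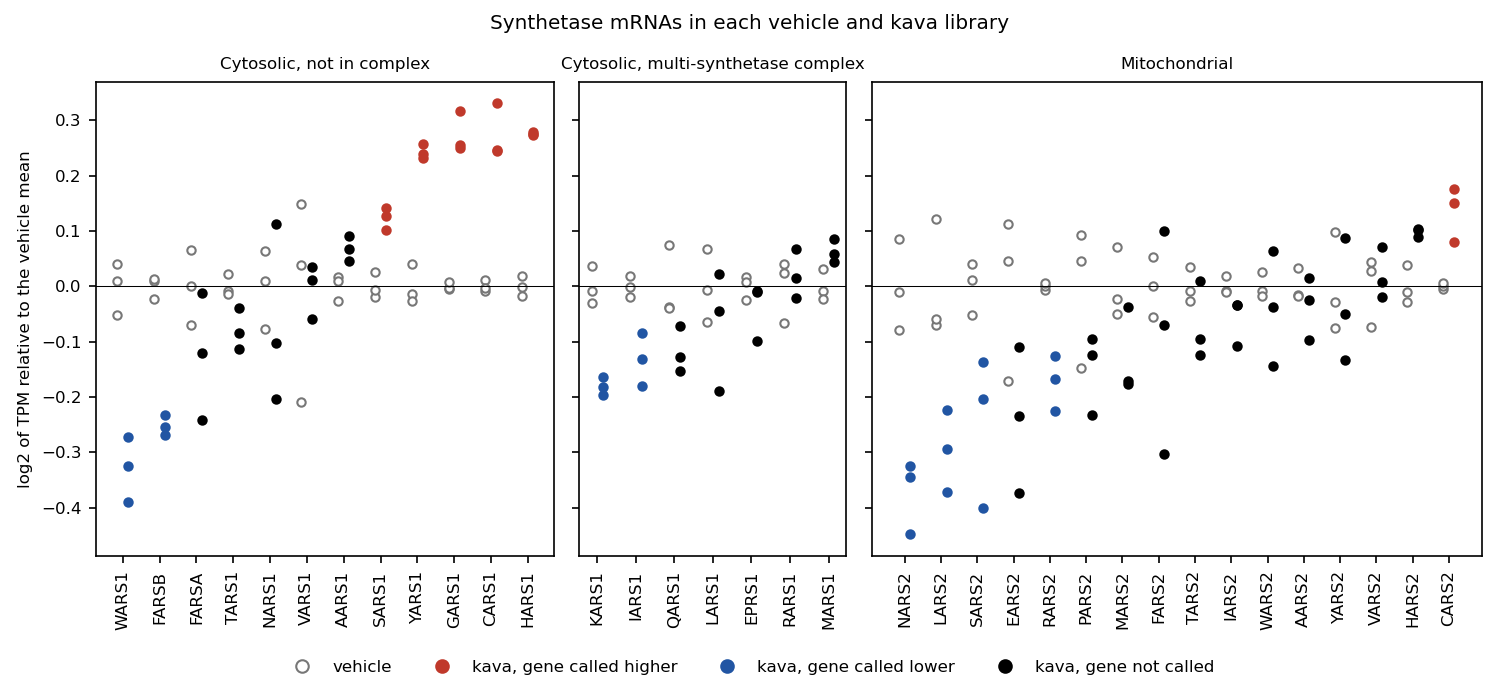
TPM of each synthetase gene in each vehicle library (open) and kava library (filled), as log2 of the ratio to the vehicle mean, ordered by fold change within the 3 sets. Red and blue mark the 6 genes called higher and the 8 called lower (limma, adjusted p under 0.05), and the points of the called genes do not overlap between groups.

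Outside the multi-synthetase complex, 5 of 12 cytosolic genes rose and 2 fell, with a median log2 fold change of 0.035 against -0.014 for all tested genes. The 58.3% called compares with 31.9% of all tested genes, a difference that was not tested. HARS1, the histidine enzyme, stood at 105, 108 and 107 TPM in vehicle libraries 1 to 3 and at 129, 129 and 129 TPM in kava libraries 1 to 3. The kava libraries lay close together and all above the vehicle libraries. The log2 fold change of HARS1 on the log2(TPM + 1) scale was 0.27 ± 0.0318 (SE), with a limma adjusted p of 0.000764.

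GARS1 encodes the glycine enzyme of both compartments. It stood at 148, 149 and 149.7 TPM with vehicle and at 177, 178 and 186 TPM with kava. All 3 kava libraries were above all 3 vehicle libraries, and the log2 fold change was 0.27 ± 0.0339 (limma adjusted p = 0.00104). CARS1, the cytosolic cysteine enzyme, held 52.5, 53.2 and 52.7 TPM with vehicle and 62.6, 66.4 and 62.6 TPM with kava, again without overlap. Its log2 fold change was 0.27 ± 0.0396 (limma adjusted p = 0.00217). YARS1, the tyrosine enzyme, rose from 108 ± 2.66 to 127 ± 1.10 TPM, a log2 fold change of 0.24 ± 0.0346 (limma adjusted p = 0.00196). SARS1 rose from 152 ± 2.51 to 165 ± 2.26 TPM (0.12 ± 0.0327, limma adjusted p = 0.0250).

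WARS1, the cytosolic tryptophan enzyme, moved the other way. Vehicle libraries held 143, 146 and 137 TPM and kava libraries 118, 113 and 108.5 TPM, so the highest kava library lay below the lowest vehicle library. The log2 fold change of WARS1 was -0.33 ± 0.0440 (limma adjusted p = 0.00150), the largest fall among the cytosolic genes. WARS1 is also known as an interferon-gamma response gene, and of 8 other genes of that response that could be tested 3 rose and 1 fell with kava. PSMB9, an immunoproteasome subunit, rose from 39.4 ± 2.67 TPM with vehicle to 56.3 ± 4.51 TPM with kava (0.51 on the log2 scale, limma adjusted p = 0.00186), IRF1 rose by 0.32 on the log2 scale and the inhibitor SOCS1 fell by 0.56. The other 4 genes of that list were not called, and its median log2 fold change was 0.075. Its 50% called compares with 31.9% of all tested genes. The part of this response in the WARS1 value was not tested. WARS1 lies on chromosome 14, from 100333790 to 100376343 on the minus strand (hg38), and the part of this chromosomal region in its value was not tested either. The exons of WARS1 share 287 bases with WDR25 on the opposite strand, and WDR25 had a log2 fold change of -0.56 with kava (limma adjusted p = 0.00242). Strand use in the counting is not given in the sources used here, so reads of that overlap could belong to either gene.

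FARSB encodes the beta subunit of the phenylalanine enzyme, which works only together with the alpha subunit from FARSA. FARSB fell from 28.5 ± 0.387 to 23.9 ± 0.307 TPM, a log2 fold change of -0.24 ± 0.0407 (limma adjusted p = 0.00391). FARSA went from 104 ± 4.83 to 95.2 ± 7.52 TPM, a log2 fold change of -0.12 ± 0.0639 that did not pass the test (limma adjusted p = 0.187), and its groups overlapped. The difference between the subunits was not tested.

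Within the multi-synthetase complex no member rose and 2 of 7 fell, 28.6% called against 31.9% of all tested genes. KARS1 went from 199 ± 4.80 to 176 ± 2.00 TPM, a log2 fold change of -0.18 ± 0.0337 (limma adjusted p = 0.00638), and IARS1, the isoleucine enzyme, from 149 ± 1.98 to 136 ± 4.53 TPM (-0.13 ± 0.0372, limma adjusted p = 0.0334). The median over the 7 was -0.068 and the other 5 lay between -0.12 and 0.06. Of the scaffold proteins of the complex, AIMP2 went from 74.0 ± 3.85 TPM with vehicle to 65.4 ± 2.76 TPM with kava (-0.18 on the log2 scale, limma adjusted p = 0.0364), while AIMP1 (-0.06) and EEF1E1 (-0.07) were not called. The call of AIMP2 was lost without any 1 library other than kava replicate 2 (limma adjusted p up to 0.112). KARS1 and GARS1, the genes that serve both compartments, changed in opposite directions.

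Among the 16 mitochondrial genes 1 rose and 4 fell. The 31.2% called is near the 31.9% of all tested genes. Of the 16, 13 had a negative log2 fold change, and the median was -0.075 against -0.014 for all tested genes. NARS2, which charges asparagine tRNA in mitochondria, held 25.5, 27.2 and 24.3 TPM with vehicle and 20.5, 20.2 and 18.8 TPM with kava. Its groups did not overlap and its log2 fold change of -0.36 ± 0.0590 was the largest of the 35 with kava (limma adjusted p = 0.00370). LARS2, the leucine enzyme, held 23.6, 20.6 and 20.8 TPM with vehicle and 16.7, 17.7 and 18.6 TPM with kava. The kava libraries were all lower, with a log2 fold change of -0.28 ± 0.0673 (limma adjusted p = 0.0176).

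SARS2 fell from 26.9 ± 0.867 to 22.8 ± 2.12 TPM (-0.24 ± 0.0710, limma adjusted p = 0.0391) and RARS2, the arginine enzyme, from 39.4 ± 0.181 to 34.9 ± 1.21 TPM (-0.17 ± 0.0420, limma adjusted p = 0.0197). CARS2 rose from 80.3 ± 0.307 to 88.3 ± 3.04 TPM (0.13 ± 0.0384, limma adjusted p = 0.0336). For serine, therefore, the cytosolic gene rose and the mitochondrial gene fell, whereas for cysteine both rose. The reads of SARS2 are uncertain, because 46.2% of its exon bases are shared with AC011455.2 on the same strand. The calls of SARS1, SARS2 and CARS2 also depended on single libraries, as given below. Summed over the mitochondrial set, the vehicle libraries held 473 ± 3.60 TPM and the kava libraries 452 ± 11.4 TPM, a ratio of 0.957. The cytosolic set summed to 2458 ± 24.1 and 2453 ± 16.8 TPM, a ratio of 0.998, so rises and falls within it offset each other.

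The 21 synthetase genes that were not called with kava had log2 fold changes from -0.23 to 0.10. EARS2, the mitochondrial glutamate enzyme, was at the lower end, with overlapping groups and a limma adjusted p of 0.0949. Among called genes the median size of the log2 fold change was 0.24 for the synthetases and 0.33 for all genes. CARS1, FARSB, GARS1, HARS1, KARS1, NARS2, WARS1 and YARS1 kept their call when any single library was left out. The other 6 did not. LARS2 lost its call without vehicle replicate 1 or kava replicate 2 (limma adjusted p = 0.0517 and 0.0549), RARS2 without any 1 vehicle library or kava replicate 1 (up to 0.0632), and SARS1 without any 1 vehicle library or kava replicate 2 (up to 0.0936). CARS2 was called only with all libraries or without kava replicate 3, and reached a limma adjusted p of 0.106 without another. IARS1 and SARS2 lost their calls without any library other than kava replicate 2, with limma adjusted p up to 0.110 and 0.113.

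HARS1 and HARS2, the cytosolic and mitochondrial histidine genes, lie head to head on chromosome 5, and the bases between their start sites are shown because both genes are read from them. In RefSeq (GRCh38.p14) HARS1 starts at 140691370 on the minus strand and HARS2 at 140691455 on the plus strand, with 84 bases between. The stretch below is chr5:140691321-140691504 on the plus strand, where the promoter windows of both genes overlap, and capitals run from one start base to the other.
HARS1 and HARS2: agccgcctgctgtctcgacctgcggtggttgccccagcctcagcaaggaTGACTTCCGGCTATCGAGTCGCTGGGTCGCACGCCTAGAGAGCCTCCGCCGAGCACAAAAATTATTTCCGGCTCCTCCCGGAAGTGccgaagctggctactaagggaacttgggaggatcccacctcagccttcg
The 184 bases had a GC content of 61.4%. Beside the rise of HARS1, HARS2 held 29.8, 29.4 and 30.8 TPM with vehicle and 32.2, 31.9 and 32.2 TPM with kava. The groups of HARS2 did not overlap, but its log2 fold change of 0.10 ± 0.0404 did not pass the test (limma adjusted p = 0.113). Exons of the pair share 437 bases on opposite strands, so some reads could belong to either. HARS1 also shares 221 exon bases with WDR55 on the opposite strand, and WDR55 had a log2 fold change of 0.29 with kava (limma adjusted p = 0.0102).

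Because ATF4 acts on synthetase genes, the RefSeq promoter windows, 300 bases from 250 before to 50 after the start, were searched on both strands for TGATGNAA, the core of the element that ATF4 is known to bind with C/EBP partners. Windows were found for 30 of the 35 genes; AARS2, LARS1, VARS1, VARS2 and YARS1 were not searched. The letters were present in 8 of the 30 genes, AARS1, CARS1, GARS1, IARS1, MARS1, NARS1, TARS1 and YARS2, and in 4.46% of all 27305 genes with a window. The form TGATGCAA, which is included in the first, was present in 6 of the 30 and in 1.08% of all genes. The stretches of 60 bases below are those of the 3 genes with the letters that were called with kava, and of 2 that were not, each read 5′ to 3′ on the strand of its gene with the match in capitals. TTGCATCA and TTTCATCA are the letters of the opposite strand.
CARS1: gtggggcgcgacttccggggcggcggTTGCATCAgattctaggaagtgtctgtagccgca
GARS1: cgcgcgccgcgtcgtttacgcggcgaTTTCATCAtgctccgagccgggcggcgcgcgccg
IARS1: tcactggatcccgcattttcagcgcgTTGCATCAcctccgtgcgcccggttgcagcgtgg
MARS1: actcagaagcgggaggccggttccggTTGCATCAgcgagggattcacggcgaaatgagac
TARS1: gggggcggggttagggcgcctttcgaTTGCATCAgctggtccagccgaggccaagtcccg
They lie at chr11:3057392-3057451 (minus strand), chr7:30594819-30594878 (plus), chr9:92293677-92293736 (minus), chr12:57488038-57488097 (plus) and chr5:33440941-33441000 (plus) of GRCh38.p14. Counting the start base as 0, the matches begin at -2 in CARS1, -33 in GARS1, -13 in IARS1, -4 in MARS1 and 2 in TARS1. In AARS1 and YARS2 they begin farther upstream, at -187 and -197, and in NARS1 at 14. With kava, CARS1 and GARS1 rose, IARS1 fell, and AARS1, MARS1, NARS1, TARS1 and YARS2 were not called, with log2 fold changes from -0.08 to 0.07. A match describes the letters in the window and not binding. The 3 of 8 called stand beside 31.9% of all tested genes, and the call of IARS1 was lost without any 1 library other than kava replicate 2. Whether a match goes with a change was not tested.

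The genes that sense uncharged tRNA and act downstream of it were followed from lists of known members. ATF4 itself rose with kava, from 304, 309 and 297 TPM in the vehicle libraries to 345, 343 and 337 TPM in the kava libraries, without overlap (log2 fold change 0.17 ± 0.0320, limma adjusted p = 0.00597). EIF2AK4, the kinase GCN2, stood at 43.0 ± 0.665 and 44.8 ± 1.75 TPM and was not called (0.06 ± 0.0432, limma adjusted p = 0.346). GCN1, its activator, stood at 55.6 ± 2.40 and 52.7 ± 1.71 TPM and was not called either (limma adjusted p = 0.268). The share called with kava was 44.4% in the eIF2alpha kinase arm and 31.9% over all tested genes, a difference that was not tested. Of the 9 genes of the arm 3 rose and 1 fell. Beside ATF4 these were the phosphatase subunits PPP1R15B (0.31) and PPP1R15A (0.27), and EIF2S1, which encodes eIF2alpha itself and fell from 307 ± 16 TPM with vehicle to 226 ± 14.2 TPM with kava (-0.44 ± 0.0580, limma adjusted p = 0.00133). PPP1R15B was not called without any 1 vehicle library or kava replicate 2 (limma adjusted p up to 0.0980).

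Of 25 known ATF4 target genes outside the synthetases, 14 rose and 2 fell with kava, with a median log2 fold change of 0.227. STC2, a secreted glycoprotein, rose from 103 ± 1.07 to 223 ± 23.9 TPM (1.10 ± 0.0735, limma adjusted p = 5.83e-05), and the stress regulator NUPR1 from 7.63 ± 0.719 to 14.1 ± 1.70 TPM (0.81 ± 0.101, limma adjusted p = 0.00106). SLC7A5, a transporter of large neutral amino acids, rose from 233 ± 10.0 to 338 ± 12.1 TPM (0.53 ± 0.0448, limma adjusted p = 0.000167), while ATF3 fell from 12.2 ± 1.06 to 8.23 ± 1.42 TPM (-0.53 ± 0.121, limma adjusted p = 0.0144). Of the 19 cytosolic synthetases, a set that was not narrowed to known ATF4 targets, 5 rose and 4 fell. Of all 35 synthetases 6 rose, none by more than 0.27, and 8 fell. Over all tested genes 16.3% rose and 15.6% fell. The difference between the lists was not tested.

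The lists of genes that work around the synthetases are read against the same background of 31.9% of all genes called with kava, 16.3% higher and 15.6% lower. The list of cytosolic elongation factors, which carry charged tRNA to the ribosome or act in the steps after it, had 4 of 7 lower and none higher, among them EEF1A2 (log2 fold change -0.59), EEF1B2 (-0.24) and EEF1G (-0.16). Of 15 genes of tRNA maturation and export 2 rose and 3 fell, a share near that background. The falls included RPP40, a subunit of RNase P (-0.41), and TRNT1, which adds the CCA end that synthetases charge (-0.39). Of 17 genes of RNA polymerase III and its factors, GTF3C3 (-0.34) and GTF3C4 (-0.17) fell and none rose, a share below the background. Of 5 genes of tRNA editing and proofreading, PTRH2 and AARSD1 fell, each by 0.18 on the log2 scale. Several of these calls were lost when 1 library was left out: EEF1G without vehicle replicate 1 or 2 or kava replicate 2, GTF3C3 without vehicle replicate 2 or 3, GTF3C4 without any 1 library other than kava replicate 2, PTRH2 without vehicle replicate 2 or 3 or kava replicate 2, and AARSD1 without vehicle replicate 1 or 3 or kava replicate 2 or 3 (limma adjusted p up to 0.109).

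Of 12 genes of mitochondrial tRNA charging and translation, 2 rose, the elongation factor genes GFM1 (0.24) and GFM2 (0.22), and 3 fell, GATB (-0.29), a subunit of the amidotransferase that makes glutaminyl-tRNA in mitochondria, MTIF2 (-0.28) and TSFM (-0.26). Of 8 genes of mitochondrial tRNA maturation none rose and 3 fell, PRORP (-0.42), TRMT10C (-0.37), which is its partner in mitochondrial RNase P, and TRIT1 (-0.34). Of the 13 mRNAs made by mitochondria themselves 1 was called, MT-CO1, at a log2 fold change of -0.17, and it was not called without vehicle replicate 2 or kava replicate 2 (limma adjusted p = 0.0530 and 0.0511) or after quantile normalisation (0.536).

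With SNRPA1 siRNA, 6 of the 35 synthetase mRNAs changed, 5 of them downward. VARS1, the cytosolic valine enzyme, fell to 0.512 of its control level, and its mitochondrial counterpart VARS2 to 0.610. Both cysteine genes, CARS1 and CARS2, and the complex member QARS1, which charges glutamine tRNA, fell to between 0.724 and 0.763. YARS2, the mitochondrial tyrosine enzyme, was the 1 gene that rose, to 1.29 of control. The 17.1% of synthetases called compares with 12.2% of all 13772 genes tested, and by direction the backgrounds were 7.29% lower and 4.89% higher (edgeR quasi-likelihood test, Benjamini-Hochberg adjusted p under 0.05). Groups did not overlap for 14 of the 35, against 38.7% of all tested genes.

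**Figure D3:**
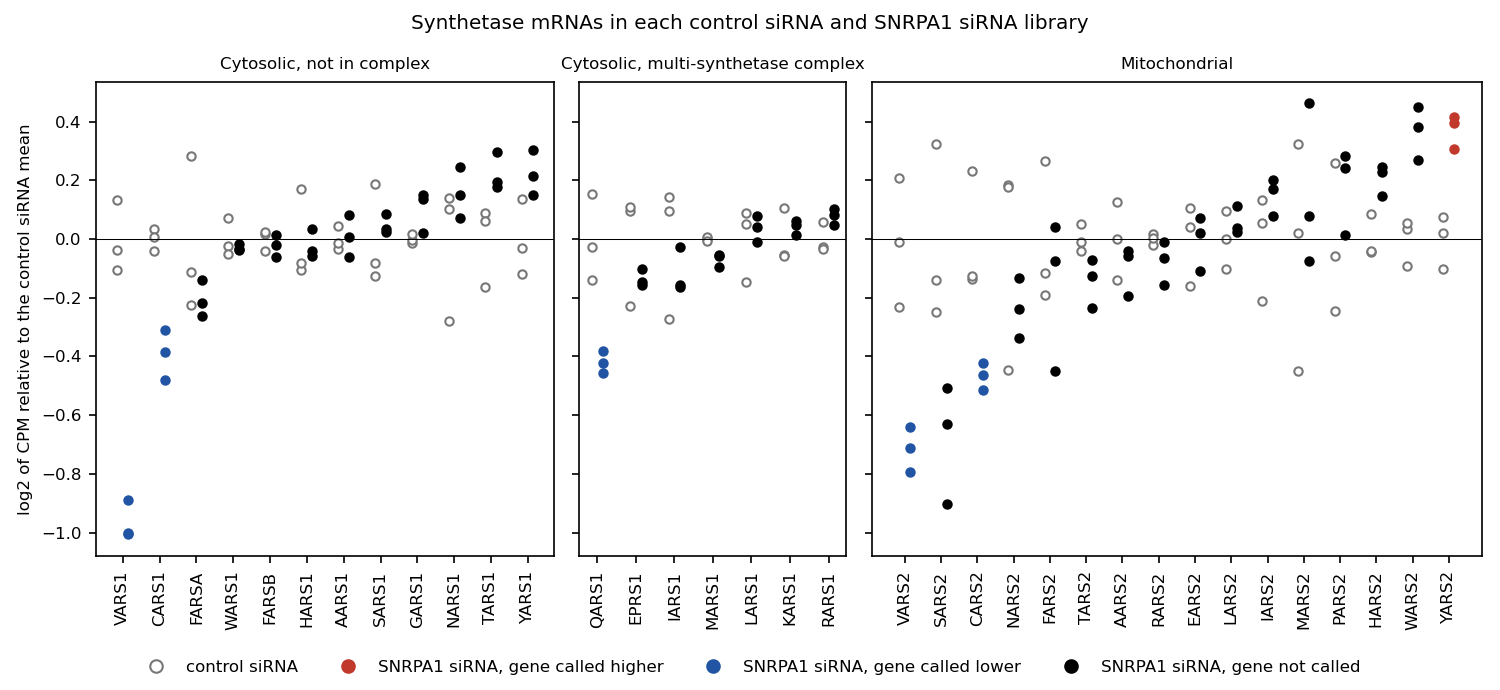
CPM of each synthetase gene in each control siRNA library (open) and SNRPA1 siRNA library (filled), as log2 of the ratio to the control mean, ordered by fold change within the 3 sets. Blue and red mark the 5 genes called lower and the 1 called higher (edgeR, adjusted p under 0.05). VARS1 lies near -1 in all 3 SNRPA1 siRNA libraries.

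VARS1 (ENSG00000204394, chromosome 6 from 31777518 to 31795752 on the minus strand, hg38) held 232, 196 and 206 CPM in control siRNA libraries 1 to 3 and 105, 105.5 and 114 CPM in SNRPA1 siRNA libraries 1 to 3. The groups were far apart, with means of 211 ± 18.5 and 108 ± 5.02 CPM. The log2 fold change was -0.96 ± 0.0888 (edgeR adjusted p = 0.00698), the largest of the 35.

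VARS2 (ENSG00000137411, chromosome 6 from 30914205 to 30926459 on the plus strand) held 32.5, 37.8 and 27.9 CPM in the control libraries and 21.0, 18.9 and 20.0 CPM in the SNRPA1 siRNA libraries. The control libraries varied more, and the groups did not overlap. The log2 fold change was -0.71 ± 0.130 (edgeR adjusted p = 0.0212). VARS2 shares 22% of its exon bases with GTF2H4 on the same strand, so reads could be split between them, and GTF2H4 itself had a log2 fold change of -0.06 (edgeR adjusted p = 0.797).

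QARS1 (chromosome 3 from 49095932 to 49105123, minus strand) held 280.4, 229 and 248 CPM in the control libraries and 184, 188 and 194 CPM in the SNRPA1 siRNA libraries, without overlap. Its log2 fold change was -0.42 ± 0.0904 (edgeR adjusted p = 0.0311). It was the only one of the 7 complex members that passed the test, and the other 6 lay between -0.14 and 0.08. The scaffold genes AIMP1 (0.33), AIMP2 (-0.02) and EEF1E1 (0.22) were not called.

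CARS1 (chromosome 11 from 3000922 to 3057613, minus strand) held 105, 99.9 and 103 CPM in the control libraries and 73.7, 78.7 and 82.8 CPM in the SNRPA1 siRNA libraries. CARS2 (chromosome 13 from 110641412 to 110713603, minus strand) held 121, 94.1 and 94.8 CPM in the control libraries and 72.3, 75.1 and 77.2 CPM in the SNRPA1 siRNA libraries. Neither gene's groups overlapped, although control replicate 1 stood well above the other controls for CARS2. The log2 fold changes were -0.39 ± 0.0769 for CARS1 and -0.47 ± 0.114 for CARS2 (edgeR adjusted p = 0.0252 and 0.0428).

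YARS2 (chromosome 12 from 32727490 to 32755897, minus strand) held 30.5, 34.4 and 33.2 CPM in the control libraries and 43.0, 40.4 and 43.6 CPM in the SNRPA1 siRNA libraries. All SNRPA1 siRNA libraries were higher, with a log2 fold change of 0.37 ± 0.0881 (edgeR adjusted p = 0.0390). Just outside the threshold were SARS2, at 38.9 ± 8.58 and 24.4 ± 3.35 CPM with a log2 fold change of -0.67 ± 0.178 (edgeR adjusted p = 0.0518), and WARS2, the mitochondrial tryptophan enzyme, at 0.37 ± 0.102 (edgeR adjusted p = 0.0576). The groups of both genes did not overlap. SARS2 shares 46.2% of its exon bases with AC011455.2 on the same strand, and its reads are therefore uncertain.

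By set, 2 of 12 cytosolic genes outside the complex, 1 of 7 in the complex and 2 of 16 mitochondrial genes fell, and 1 mitochondrial gene rose. The median log2 fold change was -0.021 over the 35 and -0.003 over all tested genes, with 19 of the 35 below 0 and 16 above. Summed levels went from 3582 ± 36.4 to 3451 ± 24.0 CPM in the cytosolic set and from 640 ± 11.8 to 606 ± 8.25 CPM in the mitochondrial set. Synthetases fall into 2 unrelated structural classes that activate amino acids by different folds. All 6 called genes were among the 18 class I genes and none among the 16 class II genes, while EPRS1 holds one domain of each. At an edgeR adjusted p of 0.0518 the class II gene SARS2 lay just outside, so the split rests on the threshold. With kava the calls were spread over both classes, with 3 higher and 4 lower in class I and the same numbers in class II.

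The knockdown calls depended on single libraries more than the kava calls did. Without control siRNA replicate 3, or without any 1 of the SNRPA1 siRNA libraries, edgeR called none of the 13772 genes, no synthetase and not SNRPA1, although 2887 to 3327 genes had an unadjusted p under 0.05. The edgeR adjusted p of VARS1 was then 0.0526 to 0.0695. Without control siRNA replicate 1 all 6 synthetases kept their calls and EPRS1, IARS1, NARS2, SARS2, WARS2 and YARS1 were added, 12 in all, while the count over all genes rose to 4537. Without control siRNA replicate 2 the 4 genes CARS1, QARS1, VARS1 and VARS2 were called. Over all 14 alternative settings the log2 fold change of VARS1 lay between -1.01 and -0.78, and no called synthetase changed sign.

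The synthetase genes that fell had transcripts of 53.3% to 62.6% GC. This range overlapped that of the 29 genes not called, 41.4% to 61.4%. The principal transcripts of the 5 had a median GC content of 56.4%, and VARS1, at 62.6%, had the highest of the 35, whereas the median of all 35 was 51.6%. Across the 35 the log2 fold change was lower where GC content was higher (Spearman rho -0.495, n = 35 genes measured in the same 6 libraries), and across 13423 tested genes the same relation was weaker (-0.296). Control siRNA replicate 1 moved with this relation. It had the highest control level of VARS1, QARS1, CARS1 and CARS2, but not of VARS2. Without it rho was -0.327 over the synthetases and -0.0535 over all genes, and the log2 fold changes were -0.89 for VARS1, -0.72 for VARS2, -0.34 for QARS1, -0.37 for CARS1, -0.34 for CARS2 and 0.32 for YARS2. Among transcripts with 60% to 65% GC, 4 synthetases had a median log2 fold change of -0.692 with all libraries and -0.597 without control siRNA replicate 1. The medians of all genes in that range were -0.175 and -0.059. With all libraries the 4 stood at -0.96 (VARS1), -0.71 (VARS2), -0.67 (SARS2) and -0.21 (FARSA), and SARS2 and FARSA were not called. VARS2 and SARS2 share exon bases with other genes on the same strand, so their reads are less certain. Each library was also corrected for GC content, a setting chosen after the data were seen. The median of the 4 synthetases was then -0.529, and the 6 called synthetases were called still. The correction itself removes the relation with GC content over all genes, so their median of 0.018 in that range was fixed by it.

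**Figure D4:**
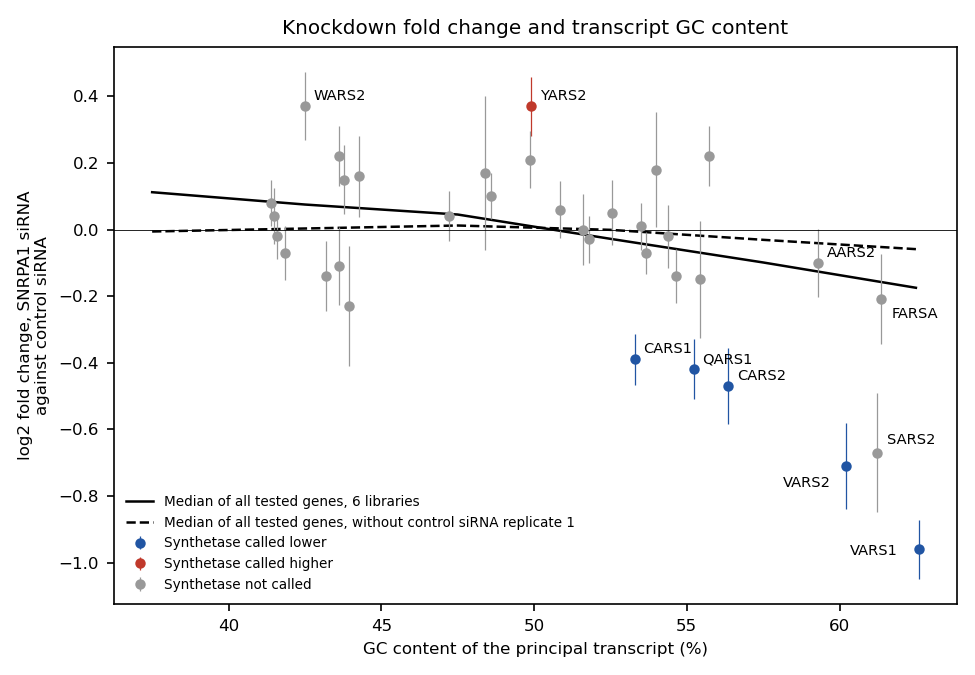
Log2 fold change of each synthetase gene with SNRPA1 siRNA (points, ± SE) against the GC content of its principal transcript in percent. Lines join the medians of all tested genes in steps of GC content, with all 6 libraries (solid) and without control siRNA replicate 1 (dashed). VARS1, VARS2, SARS2, CARS2, QARS1 and CARS1 lie below both lines.

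Exon and intron structure varied with the fold changes as well. The 5 genes that fell had a median of 24 exons, VARS1 with 30, VARS2 with 29 and QARS1 with 24, whereas YARS2, which rose, has 5. Over the 35 the Spearman rho of log2 fold change with the number of exons was -0.475, and -0.577 without control siRNA replicate 1, against -0.112 and -0.246 over all genes. The median intron was 122 bases in QARS1, 134 in VARS1 and 159 in VARS2, but 994 in CARS1 and 3807.5 in CARS2. Of 9 synthetase genes with a median intron of at most 400 bases 3 fell, and of the 25 with longer introns 2 fell. Over all tested genes 16.4% of those with such short introns fell and 6.36% of the others. With intron length itself the Spearman rho was 0.386 over the 34 synthetase genes with introns and 0.227 over all genes, and 0.337 and 0.0793 without control siRNA replicate 1. The separate parts of GC content, intron length and exon number were not tested. Splicing itself was not measured by these gene totals.

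In the knockdown 1 of the 9 genes of the eIF2alpha kinase arm was called. ATF4 went from 481 ± 63.8 to 575 ± 25.2 CPM and EIF2AK4 from 89.8 ± 16.9 to 95.3 ± 5.83 CPM, and neither was called (edgeR adjusted p = 0.144 and 0.722). The called gene was GCN1, which fell from 184 ± 15.3 to 144 ± 5.65 CPM (log2 fold change -0.36 ± 0.0857, edgeR adjusted p = 0.0403), and it was not called after correction for GC content (limma adjusted p = 0.112). Of the 25 ATF4 target genes 3 rose and none fell, or 12% called against 12.2% of all genes. These were the transcription factor gene DDIT3 (0.62), SLC7A5 (0.47) and STC2 (0.30), and the median of the list was 0.182. DDIT3 overlaps MARS1 on the opposite strand, and MARS1 was called in neither experiment.

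Among the other tRNA lists, RPP30, a subunit of RNase P, rose (log2 fold change 0.40, edgeR adjusted p = 0.0230), and it too was not called after correction for GC content (limma adjusted p = 0.0904). In the list of mitochondrial tRNA charging and translation the ribosome recycling factor MRRF rose from 33.9 ± 3.35 to 53.2 ± 2.72 CPM (0.65 ± 0.1, edgeR adjusted p = 0.0144), and of the mitochondrially encoded mRNAs MT-ND5 rose (0.41, edgeR adjusted p = 0.0248). In the lists of elongation factors, RNA polymerase III, tRNA editing, mitochondrial tRNA maturation and interferon-gamma response no gene was called.

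The experiments had no library in common, and their tables were processed and tested apart. SNRPA1 was itself lower with kava, at 153, 152 and 147 TPM in the vehicle libraries and 124, 127 and 130 TPM in the kava libraries (log2 fold change -0.24 ± 0.0359, limma adjusted p = 0.00227), against -1.50 ± 0.0980 with the siRNA (edgeR adjusted p = 0.00495). The synthetases called in both experiments were CARS1 and CARS2, which are 14.3% of those called with kava and 33.3% of those called in the knockdown. Over all tested genes 12.2% were called in the knockdown and 31.9% with kava, so these shares are near the background. Both rose with kava and both fell with SNRPA1 siRNA. VARS1, the synthetase with the largest fall in the knockdown, stood at 85.8 ± 10.6 TPM with vehicle and 85.6 ± 2.86 TPM with kava, and VARS2 at 19.3 ± 0.840 and 19.5 ± 0.622 TPM. Neither was called with kava (limma adjusted p = 0.981 and 0.812). HARS1, WARS1 and FARSB, called with kava, had log2 fold changes of -0.02, -0.03 and -0.02 in the knockdown.

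**Figure D5:**
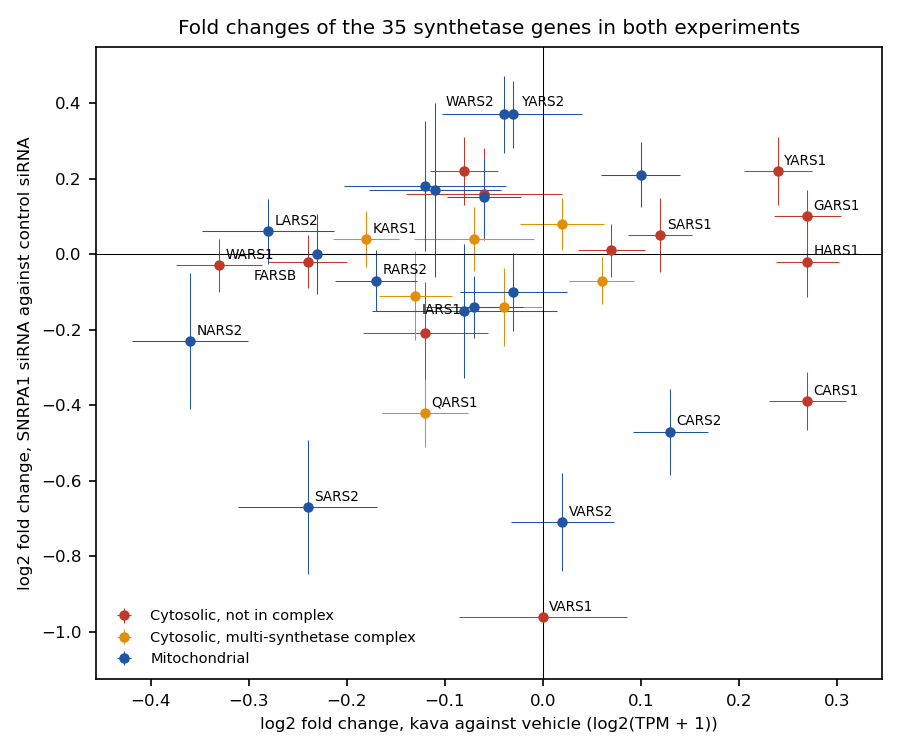
Log2 fold changes of the 35 synthetase genes with kava (horizontal, log2(TPM + 1) scale) and with SNRPA1 siRNA (vertical, from counts), each ± SE, coloured by set. Named genes were called in at least 1 experiment, except WARS2, which lay just outside the threshold in the knockdown. CARS1 and CARS2 lie at the lower right, higher with kava and lower with SNRPA1 siRNA.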

How the data were processed

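The labels' protocols state Trizol extraction and oligo(dT) selection of mRNA. The deposited kava table holds TPM as the authors scaled it, and each library sums to 1000000. Its name carries the word salmon. StringTie 1.3.4d, HISAT2 2.0.4, cutadapt 1.9, DESeq2 and the build hg38 appear per the submitters' processing notes, which tie none of them to a table. The deposited siRNA table holds raw read counts and the authors' FPKM, per the file headers; 1 FPKM column lacks the prefix of the others and was matched by its sample name. Tests were two-sided, with Benjamini-Hochberg adjustment over all tested genes. Kava was tested by limma 3.58.1 (R 4.3.3) on log2(TPM + 1), over genes averaging 1 TPM or more, and the knockdown by edgeR 4.0.16 (quasi-likelihood, TMM) over genes averaging 1 CPM or more. The SE of an edgeR fold change is its size over the square root of F. The fits were tested on simulated data. DESeq2 1.42.0 and other settings were tried as alternatives.

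The members and lists were chosen with earlier results of these data known. Named are all called members, the 6 largest changes of each comparison per library, the highest and lowest member in TPM, and of other lists ATF4, EIF2AK4, GCN1, SNRPA1 and up to 3 called genes. Other members and list genes named beside these (FARSA, HARS2, EARS2, the scaffolds, ATF3, GFM1, GFM2, overlapping genes) are not covered by that rule and were picked with their values in view. Gene positions are those of the siRNA table; transcripts, exons and overlaps come from GENCODE 29 and were found for 95.8% (kava) and 97.5% (knockdown) of tested genes. No strand setting is given in the sources used here. Replicate numbers were not taken as pairs. Of the genes this rule names, 1 is not reported here.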

Additional observations from a re-analysis of the deposited data

How the results depend on the processing

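No called synthetase changed sign in any alternative, nor did the other called genes that were recomputed (35 with kava, 11 in the knockdown); genes named outside the rule, such as ATF3 and WDR25, were not recomputed. With kava the counts of synthetases moved past 1.5-fold only when a library was left out, to 8 to 12 called, 4 to 6 higher and 4 to 7 lower, while all genes called lay between 3148 and 4265 (1636 to 2207 higher, 1415 to 2058 lower). The kava counts were 11 of 35 with no filter on low values and 14 with other pseudocounts, a stricter filter, quantile or TMM scaling, or GC correction. The 14 were not always the same genes. GC correction dropped IARS1 and added FARSA. Quantile scaling dropped SARS1 (limma adjusted p = 0.0623) and added QARS1 (log2 fold change -0.15, limma adjusted p = 0.0429), with 5 higher and 9 lower. In the knockdown, leaving out 1 library gave 0 to 4537 genes (0 to 2215 higher, 0 to 2322 lower) and 0 to 12 synthetases (0 to 3 higher, 0 to 9 lower). DESeq2 called 3195 genes (1427 higher, 1768 lower) and 8 synthetases, 2 of them higher. With limma on FPKM 393 genes and 0 synthetases were higher. With no filter, and so 30764 genes to adjust over, edgeR called 669 genes (258 higher, 411 lower), of them 2 synthetases, VARS1 and VARS2, both lower and 0 higher. GC correction with limma, chosen after seeing the data, called 3113 genes (1559 higher, 1554 lower) and 10 synthetases, 3 of them higher, and limma on the same values without it called 1692 and 6. Where not stated, the cause was not tested. Same-numbered libraries of the 2 groups did not deviate together (correlations of -0.112 to 0.0934 with kava and -0.375 to 0.00143 in the knockdown). These correlations cannot show whether the numbers mark pairs, because deviations from the mean of so few libraries depend on each other. With the replicate number as a block, limma called 3954 genes and 12 synthetases with kava, and edgeR called 0 genes and 0 synthetases in the knockdown, where 2919 genes had an unadjusted p under 0.05. The depth behind the TPM values is unknown; in the siRNA table the lowest synthetase, PARS2, still averaged 6.80 CPM in control libraries.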
